A study of Mus musculus with 26 samples.

Results

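The genes described here are 9 enzymes of citrulline, arginine, ornithine and glutamine metabolism in the intestine, of 55487 genes counted. They are *Otc*, *Cps1*, *Nags*, *Ass1*, *Asl*, *Arg2*, *Oat*, *Prodh* and *Glul*. They were chosen by function with the genotype results of these same libraries in view, so their differences are given as a description with standard errors and without p values. How many of them passed the threshold of the fit over all genes is given for each comparison, with changes of these calls under alternative fits. Nothing is read from these counts and calls. Transcripts were read by RNA-seq from the segment of proximal SI that follows the stomach, in tamIEC-KO mice and controls. The knockout mice were homozygous for a floxed allele of 1 gene and carried the Villin-CreERT2 transgene, in which the Villin promoter drives a tamoxifen-dependent Cre recombinase in IECs, and the controls were littermates with the same floxed alleles but without the transgene. All mice were on a C57BL/6N background, ate normal chow, were 8 to 12 weeks old and received 5 daily injections of tamoxifen, controls included. There were 7 mice per genotype 3 days after tamoxifen (*tg.3d* and *wt.3d*) and 6 per genotype 7 days after it (*tg.7d* and *wt.7d*), 26 in all, with 1 library per mouse.

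In enterocytes of the small intestine, glutamine is converted to glutamate and through pyrroline-5-carboxylate to ornithine, and proline enters the same route by oxidation. Inside mitochondria, carbamoyl phosphate is joined to ornithine to give citrulline, which the gut releases into blood and the kidney turns into arginine. Adult enterocytes hold little of the enzymes that carry citrulline on to arginine, and they break down arginine through mitochondrial arginase. Plasma citrulline is used clinically as a measure of functional enterocyte mass.

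Each value is a level in CPM, the count of a gene per 1000000 counts of its library, and fold changes are on the log2 scale of a fit with TMM scaling. The libraries held between 3720168 and 6338016 counts. They read the 3′ ends of transcripts, so levels were compared between mice and not between genes. As each piece holds epithelium, lamina propria and muscle, fewer cells of a type and less RNA per cell cannot be told apart.

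Some libraries held transcripts of neighbouring organs. The summed level of 10 stomach markers was over 1000 CPM in 1 of 7 knockout and 2 of 7 control libraries at 3 days and in 1 of 6 control libraries at 7 days, with a maximum of 67330 CPM in *wt.3d* replicate 5. That of 12 pancreatic acinar markers was over 1000 CPM in 10 libraries spread over the 4 groups. Hepatocyte markers, of interest because liver is rich in urea cycle enzymes, summed to no more than 37.9 CPM in any library, and *Ahsg*, *Fga* and *Hpx* were at no more than 3 counts in each library of *wt.3d* and of both groups at 7 days. The 12 enterocyte markers, all detected in every group, summed to between 1521 and 11170 CPM in controls and between 1112 and 13680 CPM in knockouts at 3 days. At 7 days their sum was between 13390 and 25430 CPM in controls and between 4882 and 6909 CPM in knockouts, where 11 of 12 fell and 0 rose. Crypt and proliferation markers summed to between 770.3 and 931.4 CPM in controls and between 182.8 and 285.0 CPM in knockouts at 7 days, with 7 of 8 lower. The part of these cell types in the results below was not tested, beyond values without the libraries concerned.

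**Figure D1:**
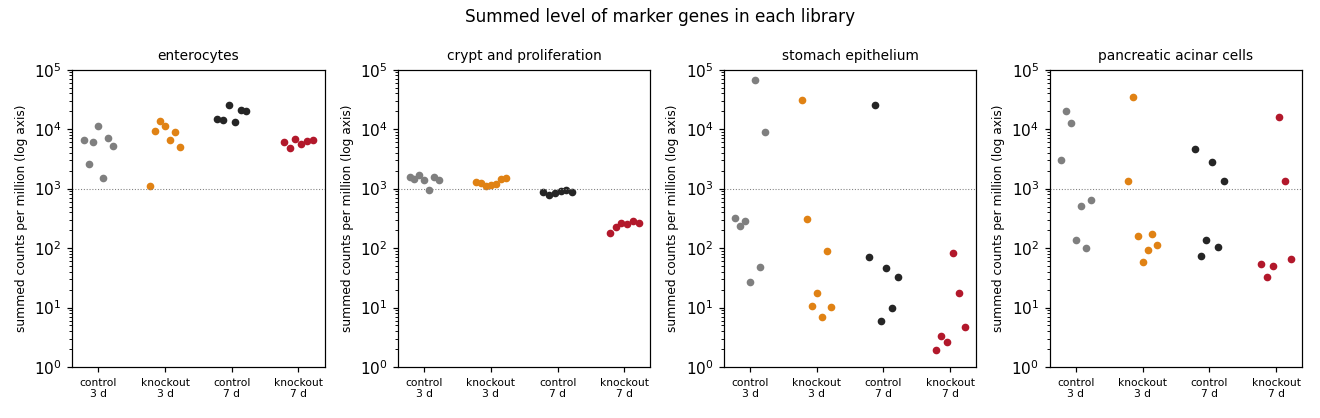
Summed level of the markers of enterocytes, of crypts and proliferation, of stomach epithelium and of pancreatic acinar cells in each library (points, CPM on a log axis) by genotype and day, with a dotted line at 1000 CPM. Enterocyte sums of the knockout mice at 7 days, from 4882 to 6909 CPM, lie below the lowest control of that day at 13390 CPM.

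Ornithine transcarbamylase, encoded by *Otc* (X:10252305-10321024, GRCm38), joins carbamoyl phosphate and ornithine to citrulline and had the lowest knockout level relative to controls among the 9 genes at 7 days. At 3 days, *Otc* in controls had a lowest, median and highest level of 59.1, 139.1 and 172.5 CPM, and in knockouts of 40.2, 73.1 and 93.7 CPM. The groups overlapped at that day only through control replicate 5, at 59.1 CPM, the library with the most stomach transcripts. Replicate 2 was at 98.8 CPM and the other controls at 132.7 CPM or more. Without the libraries with stomach transcripts, controls were between 98.8 and 172.5 CPM and knockouts between 55.45 and 93.7 CPM. At 7 days, controls ranged from 130.1 over a median of 179.0 to 197.8 CPM, and knockouts from 0.906 over 1.99 to 3.13 CPM. Every knockout mouse was far below every control, with between 5 and 19 counts per knockout library against between 599 and 1161 per control library. The mean level in knockouts was 54.2% of that in controls at 3 days and 1.15% at 7 days. On the log2 scale, the fold change was -0.76 ± 0.22 (SE) at 3 days and -6.40 ± 0.19 at 7 days. At 7 days 6891 genes averaged 100 counts or more per library, and of these *Otc* had the 16th lowest fold change. *Otc* reached that average through its control libraries and was chosen with this contrast in view, so nothing is read from its rank. At 7 days none of the 12 enterocyte markers had a lower fold change than *Otc*, the lowest of them being *Fabp2*, an intracellular fatty acid binding protein, at -5.09. Lower values occurred in other marker lists, with *Olfm4* of the crypt list at -7.17 and *Tff2* of the stomach list at -7.11. Relative to 100 CPM of summed enterocyte markers, *Otc* was at 0.995 ± 0.244 CPM (SD, n = 6) in controls and 0.0326 ± 0.0116 CPM (n = 6) in knockouts at 7 days, and the genotypes did not overlap on this scale either. Because of the choice of *Otc*, nothing is read from these comparisons with markers.

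The 250 bases before the start of *Otc* are shown because it is the gene with the largest difference at 7 days (chrX:10252055-10252304, GRCm38.p6, plus strand, from RefSeq). They were searched, together with 50 bases after the start, for the C/EBP-ATF element TTNCATCA and for the HNF4 half-site pair CAAAGNNCA on both strands. No match of either was found in the window, so no base is in capitals.
Otc: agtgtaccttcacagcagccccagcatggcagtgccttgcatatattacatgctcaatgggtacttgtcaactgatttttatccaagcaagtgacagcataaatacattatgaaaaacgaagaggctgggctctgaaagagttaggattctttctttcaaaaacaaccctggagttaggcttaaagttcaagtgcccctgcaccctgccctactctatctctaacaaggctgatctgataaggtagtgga
RefSeq windows were at hand for 6 of the 9 genes, *Otc*, *Nags*, *Ass1*, *Oat*, *Prodh* and *Glul*, and 0 of the 6 held either motif. Of all 32851 windows, 3.97% held TTNCATCA and 6.36% held CAAAGNNCA, and in 2 windows a match of one shared a base with a match of the other.

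Carbamoyl phosphate is supplied by *Cps1* (1:67123026-67231259), mitochondrial carbamoyl phosphate synthetase, which needs the N-acetylglutamate made by *Nags* (11:102145513-102149477). *Cps1* differed much less than *Otc*. Its lowest, median and highest levels were 129.3, 287.2 and 349.7 CPM in controls and 148.6, 242.1 and 299.8 CPM in knockouts at 3 days. At 7 days they were 177.4, 196.8 and 245.9 CPM in controls and 116.4, 147.0 and 159.9 CPM in knockouts. The groups overlapped widely at 3 days, with control replicate 5 the lowest of all, and were apart at 7 days, when the knockout mean was 71.4% of the control mean. The log2 fold changes of *Cps1* were -0.20 ± 0.20 and -0.46 ± 0.10. Relative to summed enterocyte markers *Cps1* was on the other side, at 2.41 ± 0.532 CPM per 100 marker CPM in knockouts and 1.19 ± 0.414 CPM in controls at 7 days, with overlap.

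For *Nags*, levels at 3 days were 12.4, 17.9 and 21.3 CPM (lowest, median and highest) in controls and 5.05, 14.4 and 19.1 CPM in knockouts. At 7 days they were 17.8, 28.1 and 29.5 CPM in controls and 6.50, 8.45 and 10.95 CPM in knockouts. All 6 knockouts were thus below all 6 controls at 7 days only, and the lowest knockout at 3 days was replicate 1, a library with stomach and pancreatic transcripts. The log2 fold change was -0.20 ± 0.23 at 3 days and -1.55 ± 0.16 at 7 days. *Nags* did not stand apart from the enterocyte markers at 7 days, as 7 of 12 markers had a lower fold change. Per 100 CPM of summed markers it was at 0.142 ± 0.0260 CPM in knockouts and 0.153 ± 0.0555 CPM in controls, with overlap. An exon of *Nags* overlaps *Gm11586* on the opposite strand, which had at most 2.5 counts in any library.

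Argininosuccinate synthase (*Ass1*, 2:31470207-31520672) and argininosuccinate lyase (*Asl*, 5:130011258-130029247) convert citrulline to arginine, the former joining citrulline with aspartate. *Ass1* was near the floor of 3 counts. It had between 2 and 11 counts per library in controls and between 4 and 11 in knockouts at 3 days, and between 0 and 5 and between 1 and 3 counts at 7 days, so no fold change is given for 7 days. At 3 days its log2 fold change was 0.12 ± 0.41. Its highest control levels were 2.96 CPM in *wt.3d* replicate 5 and 1.09 CPM in *wt.7d* replicate 2, which were also the libraries with the most stomach transcripts of their groups. *Asl* was at 3.98, 6.39 and 7.53 CPM (lowest, median and highest) in controls and 2.77, 6.47 and 8.00 CPM in knockouts at 3 days. At 7 days *Asl* was at 4.99, 6.31 and 6.94 CPM in controls and 6.52, 8.01 and 8.91 CPM in knockouts. The genotypes overlapped at both days, with 4 of 6 knockouts above every control at 7 days, and the log2 fold changes of 0.11 ± 0.22 and 0.37 ± 0.16 were the only pair that was positive at both days among the genes above the floor of 3 counts.

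**Figure D2:**
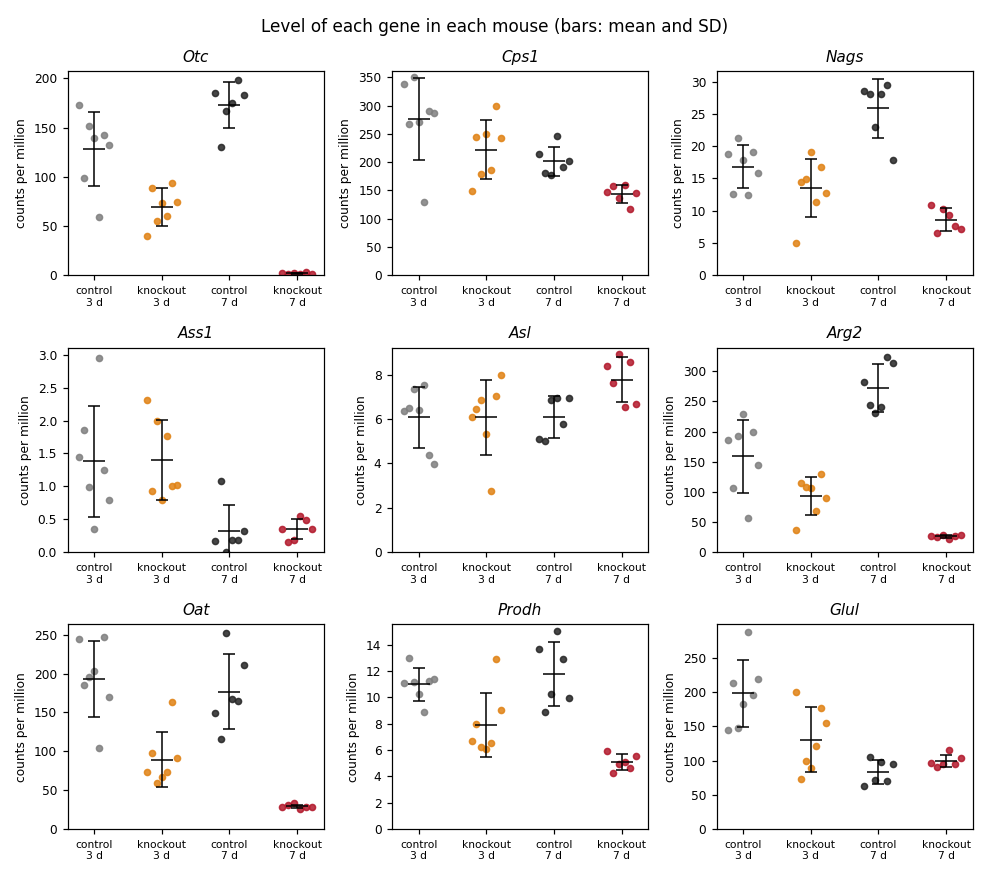
Level of each of the 9 genes (CPM, linear axes from 0) in each mouse by genotype and day, with the mean and SD as black bars. Knockout mice at 7 days lie below all controls of that day for *Otc*, *Cps1*, *Nags*, *Arg2*, *Oat* and *Prodh*.

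Ornithine is made from glutamate semialdehyde, or turned back into it, by ornithine aminotransferase, encoded by *Oat* (7:132557478-132576398). Among the 9 genes *Oat* had the largest difference at 3 days. Controls ranged from 103.8 over a median of 196.2 to 247.4 CPM and knockouts from 59.4 over 73.4 to 163.7 CPM. Of the 7 knockouts, 6 were below the lowest control, and replicate 6 was above it. At 7 days, controls ranged from 115.3 over 166.0 to 251.9 CPM and knockouts from 26.3 over 28.4 to 33.2 CPM, without overlap. The mean of knockouts was 46.3% of that of controls at 3 days and 16.5% at 7 days. The log2 fold changes of *Oat* were -1.0 ± 0.22 and -2.59 ± 0.17, and it had the 24th lowest of 6884 at 3 days and the 142nd lowest of 6891 at 7 days. As *Oat* was chosen with these contrasts in view, nothing is read from its ranks either. Per 100 CPM of enterocyte markers, *Oat* was at 0.483 ± 0.0705 CPM in knockouts and 0.980 ± 0.171 CPM in controls at 7 days, again without overlap. Nothing is read from this for the same reason. The bases before its start are given beside those of *Otc* because the pair had the lowest fold changes at 3 days (chr7:132576399-132576648, GRCm38.p6, minus strand, from RefSeq), and again no base matched either motif. They had 60% G or C, against 43.6% for *Otc*.
Oat: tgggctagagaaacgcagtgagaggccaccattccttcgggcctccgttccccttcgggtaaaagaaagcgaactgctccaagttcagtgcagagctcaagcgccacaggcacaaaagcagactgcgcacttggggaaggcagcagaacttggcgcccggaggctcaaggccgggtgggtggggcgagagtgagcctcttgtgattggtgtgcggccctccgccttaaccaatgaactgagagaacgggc

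Proline dehydrogenase, encoded by *Prodh* (16:18060357-18090203), starts the oxidation of proline in mitochondria. It was at 8.87, 11.2 and 13 CPM (lowest, median and highest) in controls and at 6.09, 6.73 and 12.9 CPM in knockouts at 3 days. At 7 days it was at 8.90, 11.6 and 15 CPM in controls and at 4.28, 5.0 and 5.96 CPM in knockouts. At 3 days 5 of 7 knockouts were below the lowest control and knockout replicate 6, the same mouse that was high for *Oat*, was at 12.9 CPM. The log2 fold changes were -0.36 ± 0.17 and -1.19 ± 0.17. *Prodh* did not stand apart from the enterocyte markers at 7 days, as 7 of 12 markers had a lower fold change.

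Mitochondrial arginase, encoded by *Arg2* (12:79130777-79156301), splits arginine into ornithine and urea. Its levels at 3 days were 56.2, 185.9 and 229.2 CPM (lowest, median and highest) in controls and 37.2, 106.7 and 129.3 CPM in knockouts. At 7 days they were 230.1, 263.8 and 324.2 CPM in controls and 22.1, 27.0 and 28.6 CPM in knockouts. The 6 knockouts at 7 days lay within a narrow range and their mean was 9.70% of the control mean, while the genotypes overlapped at 3 days. The log2 fold changes were -0.64 ± 0.29 and -3.34 ± 0.12. These counts have a limit that sits at the 3′ end, where the libraries read. The last exon of *Arg2* is 476 bases long, and 285 of them (12:79156017-79156301) also lie in the last exon of *Vti1b*, a vesicle SNARE gene on the opposite strand. The authors state no strand option and divided a read on several genes among them, so tags in the shared stretch cannot be assigned to one gene. Within the groups *Vti1b* followed *Arg2* closely, with r = 0.99 and rho = 0.98 over 26 libraries. *Vti1b* was at 295.4 ± 37.6 CPM in controls and 83.9 ± 6.38 CPM in knockouts at 7 days, with a log2 fold change of -1.79 ± 0.11. The excess of *Vti1b* over *Arg2*, however, was higher in knockouts, at 57.4 ± 4.48 CPM (from 49.6 to 62.5) against 22.7 ± 9.78 CPM (from 3.94 to 29.9), with *Vti1b* above *Arg2* in all 26 libraries. At 3 days this excess was 38.8 ± 6.47 CPM in knockouts and 32.3 ± 2.52 CPM in controls. The counts cannot tell how much of the shared signal belonged to either gene.

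**Figure D3:**
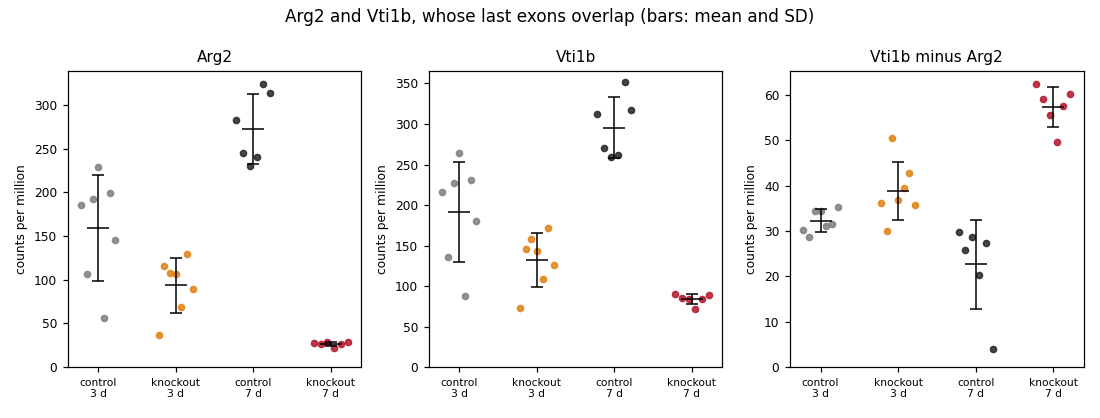
Levels of *Arg2* and *Vti1b* and the difference *Vti1b* minus *Arg2* (CPM) in each mouse by genotype and day, with the mean and SD as black bars. The counts assigned to both genes were lower in knockouts at 7 days, while the difference was higher, at 57.4 CPM against 22.7 CPM. As tags in the shared stretch cannot be assigned, the counts do not show which gene was lower.

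Glutamine synthetase, encoded by *Glul* (1:153899944-153909723), makes glutamine from glutamate and ammonia, and its pattern was unlike that of the genes above. At 3 days controls ranged from 144.5 over a median of 195.8 to 287.5 CPM and knockouts from 73.0 over 121.6 to 199.9 CPM. At 7 days controls ranged from 62.5 over 83.1 to 104.9 CPM and knockouts from 90.2 over 95.7 to 116.1 CPM. Thus 4 of 7 knockouts were below every control at 3 days, and at 7 days the groups overlapped with only 1 knockout above every control. The log2 fold change was -0.53 ± 0.20 at 3 days and 0.29 ± 0.11 at 7 days. Relative to enterocyte markers, whose sum was itself lower in knockouts, *Glul* was higher in every knockout at 7 days, at 1.65 ± 0.244 against 0.496 ± 0.198 CPM per 100 marker CPM. So was *Asl*, at 0.129 ± 0.0186 against 0.0350 ± 0.00903 CPM, so this was not particular to *Glul*. Within groups the level of *Glul* moved against the enterocyte markers, with r = -0.67 and rho = -0.57 over 26 libraries. It moved with smooth muscle markers, with r = 0.53 and rho = 0.54, and with stomach markers, with r = 0.55 and rho = 0.38. *Ass1*, near the floor, had relations of the same signs, with r = -0.57, 0.42 and 0.72. *Glul* shares exon bases with *Mir8114* and *Teddm2*, whose highest counts in a library were 1 and 11.7.

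Over the whole list, at 3 days all 9 genes passed the filter on low counts and 1 of them, *Oat*, was past an adjusted p of 0.05 and lower, where 0.323% of the 20760 genes tested were lower and 1.11% higher. At 7 days 6 of 9 were past it and lower, *Otc*, *Cps1*, *Nags*, *Arg2*, *Oat* and *Prodh*, where 18.8% of 20259 genes were lower and 19.7% higher. The median log2 fold change of the 9 was -0.36 at 3 days and -1.19 at 7 days, against -0.03 and -0.02 over all genes tested. For 0 of 9 genes did every knockout mouse lie below every control at 3 days, and for 6 at 7 days, where all genes gave 0.491% and 11.6%. For 0 of 9 at both days did every knockout lie above every control, where all genes gave 0.356% and 11%. Because the genes were selected with this contrast in view, nothing is read from these counts. At 7 days *Cps1* lost its call with all 26 libraries in 1 fit, which left 5 lower, and *Glul*, with log2 fold changes between 0.30 and 0.39, was past the threshold and higher with the replicate block, with stomach and pancreatic scores as covariates and without the libraries with stomach transcripts or with stomach or pancreatic transcripts. The call of *Oat* at 3 days was kept in 4 of the 14 fits that left out 1 mouse, those without knockout replicates 1, 2 or 6 or control replicate 5, and its log2 fold change over these 14 fits was between -1.20 and -0.92. *Otc* was also past the threshold and lower at 3 days under some alternatives. These were the Wald test of DESeq2, stomach and pancreatic scores as covariates and all 26 libraries in 1 fit. The fits without the libraries with stomach transcripts and without control replicate 5 gave this call too. The calls under alternatives describe how the counts depend on the fit, and nothing is read from them about the 9 genes. Without the libraries over 1000 CPM of stomach or pancreatic markers, which left 2 controls and 5 knockouts at 3 days and 2 and 4 at 7 days, the fold change of *Oat* was -1.19 ± 0.31 and -2.86 ± 0.17 and that of *Otc* -0.85 ± 0.20 and -6.57 ± 0.17, and no gene of the 9 was past the threshold at 3 days.

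**Figure D4:**
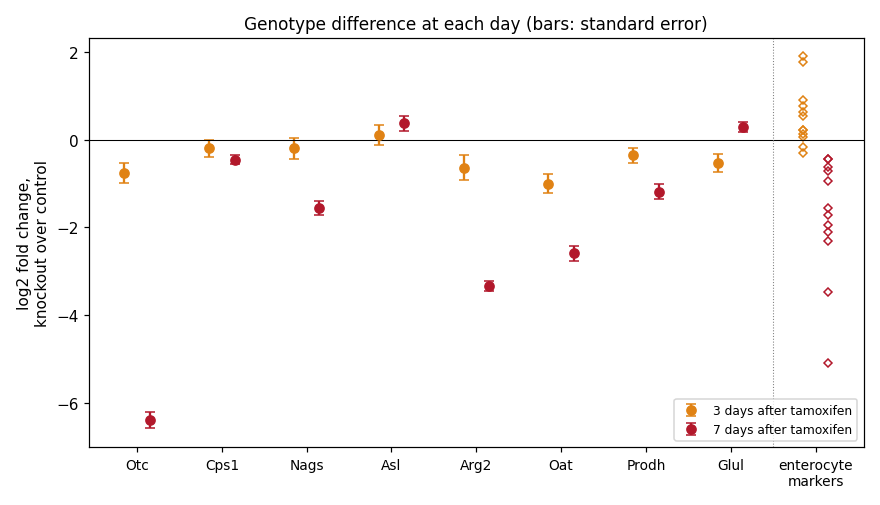
Log2 fold change of knockout over control at 3 and 7 days after tamoxifen for 8 of the 9 genes (points, bars are standard errors; *Ass1* left out because of its low counts), with the 12 enterocyte markers as open diamonds. *Otc* at 7 days lies at -6.40, below the lowest enterocyte marker at -5.09. It was chosen with this contrast in view, so nothing is read from this order.

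The fold changes of the 2 days were also set against each other. In the fit of all 26 libraries, the difference of the log2 fold changes (7 days minus 3 days) was -5.63 ± 0.34 for *Otc*, -2.69 ± 0.35 for *Arg2*, -1.57 ± 0.30 for *Oat*, -1.33 ± 0.30 for *Nags* and -0.81 ± 0.23 for *Prodh*. It was 0.83 ± 0.26 for *Glul*, and -0.24 ± 0.24 for *Cps1* and 0.28 ± 0.27 for *Asl* were of the size of their errors. In number, 5 were past the threshold and lower and 1 higher, where all genes gave 9.74% and 8.64%, and without the libraries over 1000 CPM of stomach or pancreatic markers 4 were lower and 0 higher, *Prodh* and *Glul* being lost. As the genes were chosen with the genotype results in view, nothing is read from these counts either. The levels of the controls also differed between the days, and the 2 comparisons share these mice. From 3 to 7 days *Arg2* was higher in every control mouse (log2 fold change 1.15 ± 0.23), *Glul* was lower in every one (-0.90 ± 0.17), and *Nags* (0.97 ± 0.15), *Otc* (0.81 ± 0.19) and *Prodh* (0.46 ± 0.14) were higher with overlap. *Cps1* (-0.09 ± 0.17), *Oat* (0.26 ± 0.20) and *Asl* (0.37 ± 0.19) were the remaining genes above the floor. Past the threshold were 4 higher and 2 lower, *Ass1* and *Glul*, where all genes gave 19.7% and 16.3%. *Ass1*, at 0 to 5 counts in controls at 7 days, lost its call with filterByExpr, with no filter, without the libraries with stomach or pancreatic transcripts and in most of the 13 fits that left out 1 mouse. *Prodh* lost its call without those libraries and without *wt.3d* replicate 4 or 5. TMM scaling moved this comparison by 0.36 on the log2 scale relative to CPM, so that *Oat* and *Cps1*, lower in CPM at 7 days, had fitted changes of 0.26 and -0.09. All 12 enterocyte markers rose and 7 of 7 smooth muscle markers fell in controls over the same interval. A batch that coincided with the day, or a different share of muscle in the pieces, cannot be told apart from the time after tamoxifen.

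Some of the genes moved together within groups. After the mean of each group was removed, *Arg2* and *Otc* had r = 0.80 (rho = 0.75) over 26 libraries, *Arg2* and *Cps1* r = 0.77 (rho = 0.55), *Arg2* and *Nags* r = 0.73 (rho = 0.65), and *Cps1* and *Otc* r = 0.66 (rho = 0.54). The points share the library and its makeup, and *Arg2* itself had r = 0.93 with the mean of the enterocyte markers and *Otc* r = 0.68. Of 6963 other genes that averaged 100 counts or more per library, the most like *Otc* were *Prlr*, the prolactin receptor (r = 0.87, rho = 0.84), and *Ugt2a3*, a glucuronosyltransferase (r = 0.87, rho = 0.91). For *Cps1* they were *Idh3a*, a subunit of mitochondrial isocitrate dehydrogenase (r = 0.89, rho = 0.70), and *Cpped1* (r = 0.89, rho = 0.78). For *Oat* they were *Serinc3* (r = 0.87, rho = 0.81) and *Plbd1* (r = 0.85, rho = 0.81), and *Serinc3* was also the gene most like *Prodh* (r = 0.73, rho = 0.62), followed by *Sdc4*. After *Vti1b*, *Arg2* was most like *Sco2*, a factor of cytochrome c oxidase assembly (r = 0.97, rho = 0.95). *Nags* was most like *Abhd17c* and *Myh14* (r = 0.90 and 0.88), *Asl* like *Trap1* and *Bod1* (r = 0.75 and 0.74), *Ass1* like *Col18a1* and *Hpcal1* (r = 0.84 and 0.82), and *Glul* like *Pik3r1* and *Nr2f2* (r = 0.86 and 0.84). Without the 4 libraries with stomach transcripts, the r of the gene most like *Otc* went from 0.87 to 0.78 and that of *Cps1* from 0.89 to 0.73. That of *Ass1*, whose counts were near the floor in many libraries, went from 0.84 to 0.73.

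The surrounding routes were described with 62 companion genes in 5 groups, which were listed by function, with earlier results of these data known, and tested. Their counts and adjusted p values are therefore a description and not an independent test of these routes. At 3 days 4 of 58 tested rose (6.90%) and 0 fell, with a median log2 fold change of 0.20, where 1.11% of all genes rose and 0.323% fell. At 7 days 22 of 59 rose (37.3%) and 14 fell (23.7%), with a median of 0.29, where 19.7% of all genes rose and 18.8% fell, so that the share that fell was near that over all genes. The shares over all genes apply to the counts of each group below, which hold 2 to 18 genes. The 4 that rose at 3 days were *Asns*, *Odc1*, *Slc7a1* and *Srm*, and they also rose at 7 days.

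In the ornithine and proline routes, 0 of 7 tested genes passed at 3 days, and 3 rose and 3 fell of 6 at 7 days. *Aldh4a1*, which oxidizes pyrroline-5-carboxylate to glutamate, was at 113.0 ± 35.2 CPM in controls and 13.7 ± 6.07 CPM in knockouts at 7 days (n = 6 each), and its log2 fold change was -3.03 ± 0.29 (adjusted p = 1.3e-07). Its exons overlap *Gm21969* on the same strand, so its counts may be shared. *Slc25a15*, the mitochondrial ornithine carrier that feeds *Otc*, was at 297.5 ± 55.7 against 154.5 ± 12.5 CPM (-0.93 ± 0.13, adjusted p = 1.7e-05). *Pycr3*, a cytosolic pyrroline-5-carboxylate reductase, was at 52.1 ± 3.51 against 27.3 ± 4.22 CPM (-0.90 ± 0.11, adjusted p = 1.7e-06). By contrast, *Aldh18a1*, which makes pyrroline-5-carboxylate from glutamate, rose by 0.79 ± 0.13 (adjusted p = 6.0e-05) and its groups did not overlap. *Pycr1*, a mitochondrial enzyme of proline synthesis, rose by 1.39 ± 0.36 (adjusted p = 0.00452). The *Pycr1* groups overlapped through *wt.7d* replicate 2, at 22.1 CPM, which is the control with stomach transcripts at that day. At 3 days *Aldh18a1* was at 0.18 ± 0.29 (adjusted p = 0.851) and *Slc25a15* at 0.13 ± 0.29 (adjusted p = 0.898).

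Of the genes of arginine use and polyamines, 2 of 17 rose and 0 fell at 3 days, and 8 of 18 rose and 2 fell at 7 days. Of the 8, all but *Nos3* act in polyamine synthesis, breakdown or its regulation. *Nos3*, endothelial nitric oxide synthase, rose by 1.06 ± 0.36 (adjusted p = 0.027) from 1.23 CPM in controls to 2.50 CPM in knockouts, and 5 of 5 endothelial markers rose at that day too, whose part in it was not tested. *Nos3* was named after its values were seen, and its exons overlap *Atg9b* and *Gm15587* on the opposite strand. *Odc1*, ornithine decarboxylase, which takes ornithine into polyamines, was at 8.44 ± 1.39 CPM in controls and 19.7 ± 6.94 CPM in knockouts at 3 days and at 10.5 ± 3.68 and 34.4 ± 4.23 CPM at 7 days. Its log2 fold changes were 1.33 ± 0.20 (adjusted p = 0.00173) and 1.73 ± 0.19 (adjusted p = 8.7e-07), with no overlap at either day. *Srm*, spermidine synthase, rose by 0.80 ± 0.15 at 3 days (adjusted p = 0.0101), a call that was lost with the replicate block (0.80, adjusted p = 0.124). *Sat1*, which acetylates polyamines for export or breakdown, rose by 1.77 ± 0.16 (adjusted p = 4.8e-08) and *Smox*, spermine oxidase, by 2.0 ± 0.25 (adjusted p = 3.9e-06) at 7 days, and their fold changes at 3 days were 0.40 ± 0.24 (adjusted p = 0.502) and -0.07 ± 0.24 (adjusted p = 0.935). *Agmat*, agmatinase, fell by 0.99 ± 0.29 (adjusted p = 0.0112) at 7 days, a call that was lost with stomach and pancreatic scores as covariates (-0.79 ± 0.32, adjusted p = 0.063) and, with hardly any difference left, without the libraries with stomach or pancreatic transcripts (-0.04 ± 0.27, adjusted p = 0.939). *Arg1*, the cytosolic arginase, was at 16.8 ± 13.2 and 11.7 ± 7.84 CPM at 3 days and at 8.19 ± 9.20 and 10.7 ± 12.9 CPM at 7 days in controls and knockouts, with adjusted p values of 0.727 and 0.590.

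Of the 16 genes of glutamine and glutamate use, 1 rose and 0 fell at 3 days, and 5 rose and 3 fell at 7 days. *Glud1*, mitochondrial glutamate dehydrogenase, fell to 63.7 ± 5.13 CPM from 304.9 ± 167.2 CPM at 7 days (-2.27 ± 0.28, adjusted p = 3.0e-06), and at 3 days its fold change was -0.26 ± 0.21 (adjusted p = 0.658). *Asns*, which uses glutamine to make asparagine, had the largest rise among the companion genes tested at each day. It was at 20.6 ± 4.40 and 88.7 ± 20.2 CPM at 3 days and at 13.6 ± 2.95 and 118.4 ± 6.66 CPM at 7 days, log2 fold changes of 2.23 ± 0.20 (adjusted p = 1.2e-05) and 3.16 ± 0.12 (adjusted p = 1.1e-12), with no overlap at either day. *Gpt2*, mitochondrial alanine aminotransferase, rose by 2.79 ± 0.20 (adjusted p = 2.9e-09) and *Gfpt1*, which takes glutamine into hexosamines, by 1.88 ± 0.19 (adjusted p = 3.1e-07) at 7 days.

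Of the carriers of these amino acids, 1 of 16 rose and 0 fell at 3 days, and 6 of 17 rose and 6 fell at 7 days. *Slc7a8*, a basolateral carrier of neutral amino acids, fell from 127.5 ± 37.6 to 4.72 ± 2.28 CPM at 7 days (-4.75 ± 0.27, adjusted p = 1.6e-10). *Slc7a7*, which exports basic amino acids (-1.73 ± 0.16, adjusted p = 1.1e-07), and *Slc6a19*, the brush border carrier of neutral amino acids including glutamine (-1.73 ± 0.21, adjusted p = 2.3e-06), fell as well, and an exon of *Slc7a7* overlaps *Oxa1l* on the opposite strand. *Slc38a1*, a sodium-coupled glutamine carrier, rose from 109.9 ± 27.0 to 360.8 ± 34.3 CPM (1.75 ± 0.13, adjusted p = 7.8e-09). *Slc7a1*, which takes up basic amino acids, rose at both days, by 0.89 ± 0.15 (adjusted p = 0.00442) and 1.40 ± 0.11 (adjusted p = 1.6e-08), the call at 3 days being lost with the replicate block (0.88, adjusted p = 0.0595). Neither of the 2 tested genes of bicarbonate supply and deacylation of the *Cps1* protein, *Car5b* and *Sirt5*, passed at either day.

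**Figure D5:**
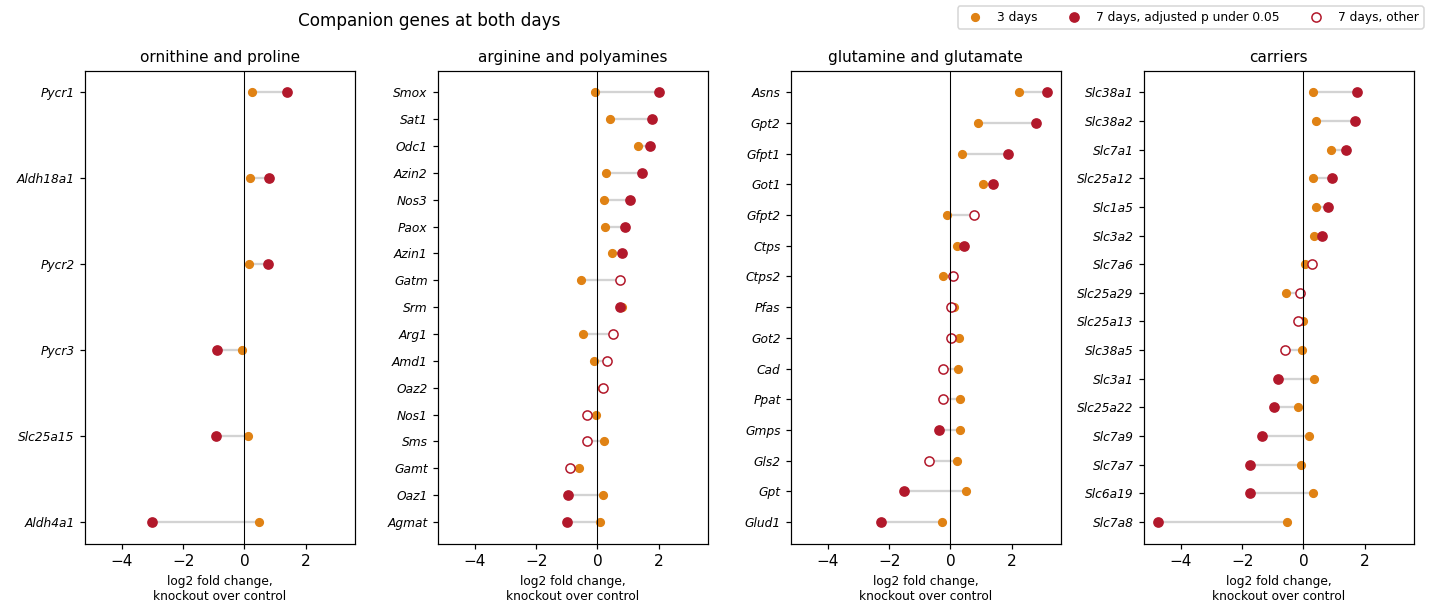
Log2 fold change of knockout over control of companion genes in 4 groups at 3 days (orange) and 7 days (red, filled where the adjusted p was under 0.05), for genes tested at both days and reported here. At 7 days *Asns* lies at 3.16 and *Slc7a8* at -4.75, and most genes lie closer to 0 at 3 days.

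Promoter windows were at hand for 47 of the 62 companion genes. The element TTNCATCA was in windows of 4 of them, *Asns*, *Got1*, *Pycr1* and *Slc7a7*, of which 3 rose and 1 fell at 7 days. The pair CAAAGNNCA was in windows of 6, *Agmat*, *Sirt5*, *Slc3a1*, *Slc7a7*, *Slc7a8* and *Slc7a9*, of which 0 rose and 5 fell. Over all genes tested 19.7% rose and 18.8% fell at 7 days, and over the companion genes tested 37.3% and 23.7%. *Slc7a7* is in both counts, and the fall of *Agmat* was lost without the libraries with stomach or pancreatic transcripts (-0.04 ± 0.27). The genes and motifs were chosen with earlier results of these data known, so nothing is read from these few genes. Stretches are shown for contrast with *Otc* and *Oat*, with the match in capitals, for *Asns* (chr6:7693210-7693258, minus strand) and *Pycr1* (chr11:120643818-120643877, minus strand), where TTNCATCA lies on the strand opposite to the gene, and for *Slc7a8* (chr14:54782039-54782098, minus strand), where CAAAGNNCA does.
Asns: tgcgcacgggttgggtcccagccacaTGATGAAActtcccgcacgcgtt
Pycr1: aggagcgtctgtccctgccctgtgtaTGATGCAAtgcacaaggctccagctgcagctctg
Slc7a8: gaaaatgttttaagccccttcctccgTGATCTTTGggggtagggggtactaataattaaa
A match of letters is a description of the sequence, and no binding was measured here.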

How the data were processed

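RNA-seq of the 3′ ends of transcripts (QuantSeq FWD kit) was re-analysed for 26 libraries of 1 mouse each. The authors deposited estimated counts of each gene, without normalization. The authors trimmed reads with cutadapt 2.10, aligned them with Subread to GRCm38 and the ERCC spike-in sequences, and counted exons with featureCounts 2.0.1, dividing reads that overlap several genes. No strand option is stated, so genes that overlap on opposite strands may share reads. Of the values, 95.0% were whole, and all were rounded to whole numbers for the fits, whereas the design had assumed whole counts. Totals were between 3720168 and 6338016 counts per library, and 3 counts was taken as the floor.

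Genotypes were compared at each day by edgeR 4.0.16 in R 4.3.3, with its quasi-likelihood test, TMM scaling and a Benjamini-Hochberg adjusted p under 0.05 over all genes tested. Genes at 0 in most libraries of either group were left out first. Adjusted p values in the report come from these fits. The difference between the days was fitted over all 26 libraries, and controls of the days were compared. For a standard error, the size of the log2 fold change was divided by the root of F. The p-values set each difference against a variance that holds both the spread between mice and counting error. Separate intervals for counting error are not given. Groups follow the sample labels.

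The 9 genes, the 62 companion genes, the marker lists and the motifs were chosen with earlier results of these data known. Named companion genes are, in each of 5 groups and at each day, the 4 with the largest change past the threshold that averaged 20 counts or more, and *Aldh18a1*, *Slc25a15*, *Glud1*, *Odc1* and *Arg1*. *Vti1b* and the other genes most like each of the 9 were named by Pearson's r of log2 CPM (TMM, prior count 2) after the group means were removed. All listed symbols were matched. Values of the targeted gene and of 1 companion gene are not reported here, and the counts of companion genes include the latter. Gene positions and exons are from GENCODE M21 and promoter windows from RefSeq, both of GRCm38.

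The alternatives tried were DESeq2 1.42.0 with its Wald test, the size factors of that tool in edgeR, no filter or filterByExpr, pancreatic and stomach scores as covariates, all libraries in 1 fit, the replicate number as a block and each mouse left out. The pipeline was tested on simulated data. Libraries were checked for duplicates, and of 72 pairs within groups 0 were identical. Libraries with over 1000 CPM of stomach or pancreatic markers were left out after the data had been seen.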

Additional observations from a re-analysis of the deposited data

Results flagged for a closer look

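A mouse far from the others of its group (Dixon's test at 95%) was found in 20 of 116 group values of the 9 genes and the named companion genes, where chance gives about 1 in 20, or 5.8. Of the 9 genes, *Cps1* was low in control replicate 5 at 3 days (129.3 CPM), *Ass1* high in control replicate 2 at 7 days (1.09 CPM), and *Oat* (163.7 CPM) and *Prodh* (12.9 CPM) high in knockout replicate 6 at 3 days.

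Control replicate 5 at 3 days, which had 67330 CPM of stomach markers, was also high for *Gfpt1* (1373 CPM), *Gpt2* (16.4 CPM), *Pycr1* (59.9 CPM) and *Slc38a1* (241.7 CPM) and low for *Slc7a1* (78.5 CPM). Control replicate 2 at 7 days, with 25580 CPM of them, was high for *Gpt2* (7.82 CPM), *Pycr1* (22.1 CPM) and *Srm* (22.1 CPM). Knockout replicate 1 at 3 days, with 30810 CPM of them, was high for *Pycr1* (39.7 CPM) and low for *Slc7a7* (19.5 CPM). The part of stomach tissue in these values was not tested. The other values were *Aldh4a1* (71.8 CPM) and *Slc6a19* (267.7 CPM) in control replicate 4 at 3 days, *Arg1* (36.9 CPM), *Slc6a19* (53.1 CPM) and *Slc7a1* (268.2 CPM) in knockout replicate 2 at 7 days, and *Slc7a8* (9.24 CPM) in knockout replicate 4 at 7 days.

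The genotype effect differed between the days for 13 of 20 named companion genes (interaction term, edgeR, adjusted p under 0.05). Most of these were named for a large change at one of the days, so nothing is read from this count, and of all 57 companion genes tested it was 19, where 3603 of 19604 genes were past the threshold. As the difference of log2 fold changes, 7 days minus 3 days, it was lower for *Slc7a8* (-4.19, adjusted p = 3.2e-06), *Aldh4a1* (-3.47), *Glud1* (-2.0, adjusted p = 2.5e-04), *Slc7a7* (-1.62), *Slc25a15* (-1.03, adjusted p = 0.0354) and *Pycr3* (-0.81). It was higher for *Smox* (2.09), *Gpt2* (1.91), *Gfpt1* (1.52), *Slc38a1* (1.46), *Sat1* (1.39), *Asns* (0.95, adjusted p = 0.0051) and *Slc7a1* (0.53, adjusted p = 0.0481).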

How the results depend on the processing

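The log2 fold changes of the 9 genes moved by less than the spread between mice under every alternative run, except *Ass1* at 3 days (0.83 without the libraries with stomach or pancreatic transcripts), and no called one changed sign. *Otc* ranged from -0.91 to -0.65 at 3 days and from -6.58 to -6.26 at 7 days. The numbers of genes past the threshold at 3 days (230 higher and 67 lower, 4 companion genes higher) were less stable. They were 531, 238 and 8 with the Wald test of DESeq2, 606, 204 and 7 with all 26 libraries in 1 fit, and 7 companion genes were higher with pancreatic and stomach scores as covariates. Without the libraries with stomach transcripts they were 365, 121 and 11, and without those with stomach or pancreatic transcripts 92 and 35. That last set also changed the numbers higher at 7 days (2618), higher and lower between the days (513 and 973, companion genes higher 4), and higher and lower in controls (2518 and 1750, companion genes lower 2), with fewer libraries in each fit. These alternatives were chosen after seeing the data. With each mouse left out in turn at 3 days, between 146 (without knockout replicate 4) and 584 (without knockout replicate 1) genes were higher, between 25 (without knockout replicate 3) and 195 (without knockout replicate 1) lower and between 4 and 8 (without control replicate 5) companion genes higher.

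Fold changes that had missed the threshold at 3 days changed sign for *Aldh18a1* (-0.13), *Slc25a15* (-0.20) and *Arg1* (0.02) with the scores as covariates and without the libraries with stomach or pancreatic transcripts (-0.01, -0.22 and 0.18). With each mouse left out, *Slc25a15* was between -0.01 (without control replicate 5) and 0.28 at 3 days, and *Arg1* between -0.50 (without knockout replicate 2) and 1.21 at 7 days. The cause of these changes was not tested. Without the libraries with stomach or pancreatic transcripts, *Odc1* (1.29 ± 0.32, adjusted p = 0.15, edgeR) and *Srm* (1.11 ± 0.26, adjusted p = 0.118) at 3 days missed the threshold with fold changes close to or above those of all libraries, in a fit of 2 controls and 5 knockouts, while *Agmat* at 7 days went to -0.04 ± 0.27 (adjusted p = 0.939).

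Replicate numbers are shared between genotypes, but only 3 of 7 same-numbered pairs at 3 days and 3 of 6 at 7 days had deviations correlated over 0.1, and 2 at each day correlated best with their own number, so the numbers were not taken as pairs. With the replicate block, 79 genes were higher and 20 lower at 3 days and 2 companion genes higher. *Srm* (0.80, adjusted p = 0.124) and *Slc7a1* (0.88, adjusted p = 0.0595, edgeR) then missed the threshold.

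Depth limits *Ass1*, with at most 11 counts in a library, and the 3′ tags shared by *Arg2* and *Vti1b* limit both.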
